A study of Mus musculus with 5 samples.

Results

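The 369 sites described here were BATF summits of Th9 cells that lay within 500 bp of a summit of the Input library and had no PU.1 summit within 500 bp. They were chosen by the deposited positions of the BATF, Input and PU.1 summits on chromosomes 1 to 19 and X, and are called BATF/Input sites below. They made up 9.35% of the 3947 BATF summits on these chromosomes. The whole BATF list held 4060 summits. The other BATF summits fell into 836 with both Input and PU.1 nearby (BATF/Input/PU.1 sites), 1040 with PU.1 and no Input (BATF/PU.1 sites) and 1702 with neither (BATF-only sites). A further 21695 Input summits had neither BATF nor PU.1 within 500 bp (Input-only summits).

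Naive CD4 T cells were taken from the spleen and nodes of wild-type C57/Bl6j mice aged 7 weeks. They were driven towards the Th9 fate on CD3/CD28-coated plates with IL-4 at 20 ng/ml, TGF-β at 2 ng/ml and an antibody that blocks IFNγ. The labels give a few hours for this step. The paper gives a longer time for its ChIP-Seq of BATF and PU.1, so the time is uncertain. Sheared chromatin was sequenced after precipitation with an antibody to BATF, to PU.1, with goat Ig or with rabbit Ig, and without precipitation as Input. All 5 libraries shared genotype, strain, age and treatment, and each antibody had 1 library, so no replicate check and no p-value was possible. The intervals below are exact 95% intervals of a share, or Newcombe 95% intervals of a difference between shares. They cover counting error only, and summits in related sequences are not independent. Summit lists hold no expression values, so the cell type was taken from the labels.

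The lists held 8947 summits for PU.1, 25194 for Input, 226 for goat Ig and 224 for rabbit Ig. Read totals were not given in the sources used here, so the depth behind each list is unknown and a difference in length between lists cannot be told apart from a difference in depth.

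BATF is a basic leucine zipper protein of the AP-1 family. It pairs with JUN proteins on AP-1 sites such as TGAGTCA and, in T cells, binds together with IRF4 at composite sites. In Th9 cells it is known to act at the Il9 gene, which encodes the cytokine that names these cells. Input is sheared chromatin that no antibody has selected, so its summits mark places where reads piled up without precipitation. Repeated DNA is known to gather such reads, since near-identical copies cannot be placed apart and copies missing from an assembly are stacked onto those present.

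The windows of 200 bp around 7 sites are shown because together they stand for the main kinds of sequence found among the 369. All were read from the plus strand of GRCm38.p6. In the first, capitals mark every stretch of at least 2 whole copies of the repeat unit. It lies in an intron of Rhcg, which encodes an ammonia transporter, and had the highest score among the simple repeats.
chr7:79596222-79596421: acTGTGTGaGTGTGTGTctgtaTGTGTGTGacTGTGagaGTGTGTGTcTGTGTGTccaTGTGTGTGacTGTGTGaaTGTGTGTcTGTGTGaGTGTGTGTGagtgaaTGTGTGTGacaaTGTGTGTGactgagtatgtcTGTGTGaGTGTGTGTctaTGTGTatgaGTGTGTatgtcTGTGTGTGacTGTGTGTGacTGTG

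The next line is the window of highest score, in an exon of Gm21738, with capitals from the BATF to the Input summit as far as the window reaches. The line after it lies at the start of Ttc28, which encodes a tetratricopeptide repeat protein, and stands for the GC-rich unmasked sites, with each CG dinucleotide in capitals. The last line is the best-scoring window that was neither masked, simple nor GC-rich, 99706 bp from a start of the potassium channel gene Kcnh8, again with capitals between the summits. Its letters still repeat in tandem, with a unit longer than the 6 bp limit of the simple-repeat measure.
chr14:19418812-19419011: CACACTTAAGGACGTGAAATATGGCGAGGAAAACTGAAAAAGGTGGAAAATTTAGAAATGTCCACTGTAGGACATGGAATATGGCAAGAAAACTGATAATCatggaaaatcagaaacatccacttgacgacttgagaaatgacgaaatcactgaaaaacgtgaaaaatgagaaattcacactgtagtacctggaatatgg
chr5:110879684-110879883: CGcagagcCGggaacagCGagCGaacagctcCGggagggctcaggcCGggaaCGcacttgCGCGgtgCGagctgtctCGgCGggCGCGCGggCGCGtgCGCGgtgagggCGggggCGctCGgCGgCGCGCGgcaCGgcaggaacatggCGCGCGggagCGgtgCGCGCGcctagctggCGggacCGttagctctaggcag
chr17:52502903-52503102: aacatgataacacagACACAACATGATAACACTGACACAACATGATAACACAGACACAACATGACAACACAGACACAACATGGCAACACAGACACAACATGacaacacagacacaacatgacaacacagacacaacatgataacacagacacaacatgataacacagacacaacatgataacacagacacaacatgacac

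Below are the best-scoring windows of the 3 largest sequence families outside the simple repeats, families 2, 4 and 3 in this order. Capitals mark the stretch that aligned to another BATF/Input site, over 139 bp at 95.7% identity to a site on chromosome 4, over 175 bp at 98.9% to a site on chromosome 16 and over 182 bp at 83.5% to a site on chromosome 7.
chr1:19378372-19378571: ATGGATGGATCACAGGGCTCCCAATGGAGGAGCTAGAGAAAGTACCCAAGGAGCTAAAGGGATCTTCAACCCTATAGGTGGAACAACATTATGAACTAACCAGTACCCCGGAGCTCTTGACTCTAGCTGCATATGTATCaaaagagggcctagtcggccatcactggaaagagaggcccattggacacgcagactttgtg
chr14:52590730-52590929: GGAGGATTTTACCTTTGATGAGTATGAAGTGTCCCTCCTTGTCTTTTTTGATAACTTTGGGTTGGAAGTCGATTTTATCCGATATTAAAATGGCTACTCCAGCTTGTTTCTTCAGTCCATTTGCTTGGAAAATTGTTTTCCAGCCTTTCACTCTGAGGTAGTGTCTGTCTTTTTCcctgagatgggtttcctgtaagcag
chr5:132729924-132730123: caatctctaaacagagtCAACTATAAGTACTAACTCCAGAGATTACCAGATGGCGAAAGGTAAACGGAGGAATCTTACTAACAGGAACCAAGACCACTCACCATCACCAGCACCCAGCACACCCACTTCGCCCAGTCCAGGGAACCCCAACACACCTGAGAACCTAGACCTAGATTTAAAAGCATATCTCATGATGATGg

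Most BATF/Input sites lay in repeated sequence. More than 50% of the window was lower case in the reference, which marks repeats, at 345 of 369 sites (93.5%, interval 90.5 to 95.8%). This share was 90.1% at BATF/Input/PU.1 sites, 65.4% at BATF-only sites, 44.2% at BATF/PU.1 sites and 96.3% at Input-only summits, and 28.0% over all 200 bp windows of the genome. The difference from BATF-only sites was 28.1 percentage points (24.4 to 31.2). The difference from BATF/Input/PU.1 sites, 3.42 points, had an interval that included 0 (−0.0914 to 6.47). In windows 5000 bp to either side of the BATF/Input sites the masked share was 30.9% of 731, close to that of the genome.

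Within this repeated sequence the sites split into 2 kinds of similar size. Simple repeats, windows in which more than 50% of positions match the letter found a fixed 1 to 6 bp upstream, filled 186 windows (50.4%, 45.2 to 55.6%). Another 161 windows (43.6%, 38.5 to 48.9%) were masked without being simple repeats. Simple repeats took 7.33% of Input-only summits and 43.1% of BATF-only sites, and masked windows that were not simple took 89.2% and 24.0%. Against BATF/Input/PU.1 sites, simple repeats were less frequent by 13.6 points (64% there, difference −13.6, interval −19.6 to −7.53) and other masked windows more frequent by 15.9 points (10.0 to 21.8).

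**Figure D1:**
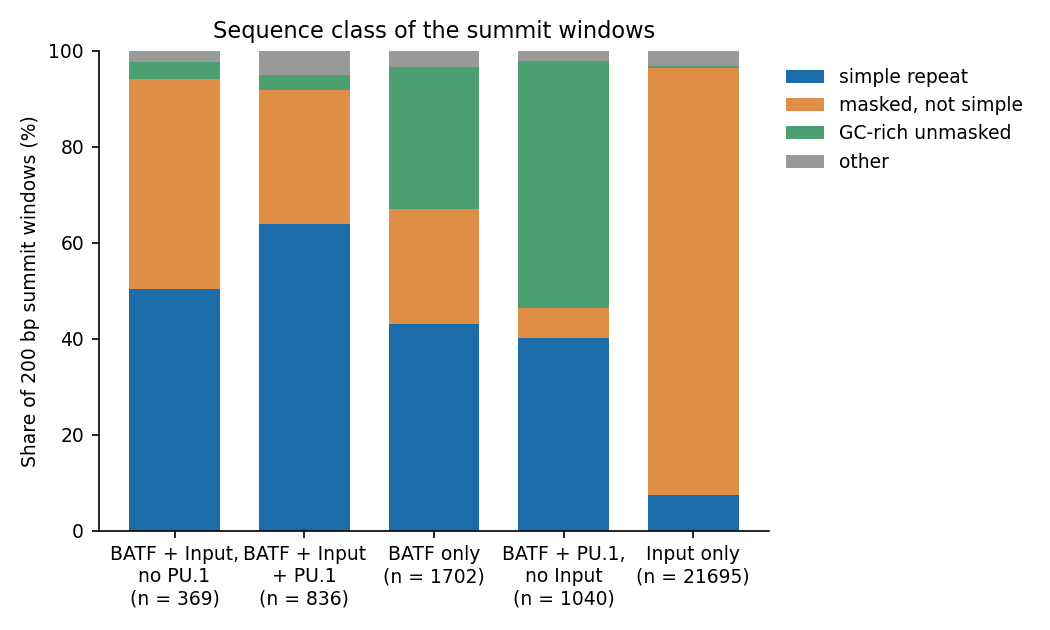
Share of 200 bp summit windows (%) in each of 4 sequence classes, stacked to 100%, for the 4 classes of BATF summits and for Input-only summits. Simple repeats and other masked windows fill 94.0% of the BATF/Input bar, and GC-rich unmasked windows, 29.5% and 51.4% in the BATF bars without Input, fill 3.52% of it.

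The remaining 22 sites were 13 GC-rich unmasked windows and 9 windows in none of these classes. Tandem repeats with units longer than 6 bp are not counted as simple repeats, so the 9 can include them. GC-rich unmasked windows, which have at least 65% GC and under 25% masked bases, are typical of CpG islands at promoters. They formed 3.52% of BATF/Input sites (1.89 to 5.95%) against 29.5% of BATF-only sites, a difference of −26.0 points (−28.6 to −22.8). Their share was 3.23% at BATF/Input/PU.1 sites and 0.272% at Input-only summits. Of the 13, 12 lay within 1000 bp of a protein-coding transcription start. The ratio of observed to expected CG dinucleotides was 0.887 to 1.34 in these windows, with 28 to 39 CG dinucleotides in each.

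The AP-1 string was found in no window. TGAGTCA or TGACTCA, searched on both strands, occurred in 0 of 369 windows (interval 0 to 0.995%). Over all 200 bp windows of the genome the share was 3.11%, and in the windows 5000 bp away from the sites it was 2.87%. The string was rare in the other classes as well, at 1 of 836 BATF/Input/PU.1 sites, 9 of 1702 BATF-only sites, 7 of 1040 BATF/PU.1 sites and 118 of 21695 Input-only summits, and the interval of the difference from BATF-only sites included 0 (−0.529 points, −1.002 to 0.532). It was also in 0 of the 183 windows that were not simple repeats (0 to 1.996%). No match says only that these letters are not in the window. The sites are therefore named here after the lists they came from, and not as AP-1 sites.

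GAAACT, a core string of IRF binding sites, was in 35 windows (9.49%, 6.70 to 12.9%) against 13.9% of genome windows. Of these windows 34 were among the 183 that were not simple repeats, a share of 18.6%. Such windows held it in 21.3% at BATF/Input/PU.1 sites and 19.4% at Input-only summits. The share was 8.67% at BATF-only sites and 3.70% at BATF/PU.1 sites. GGAAGT, the core bound by ETS factors such as PU.1, was in 7.05% of windows and in 11.2% of genome windows. GAGGAAGT, the longer PU.1 string that contains this core, was in 2 windows, on chromosomes 5 and 7, or 0.542% against 1.19% of genome windows.

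In the simple repeats 25 different units were found. The dinucleotide AC, or GT on the other strand, was the unit of 96 of 186 windows (51.6%, 44.2 to 59.0%). It had a similar place at BATF-only sites (55.3%) and at BATF/Input/PU.1 sites (44.7%), with both intervals of the difference including 0, and a smaller one at Input-only summits (21.6%, difference 30.0 points, 22.6 to 37.3). The tetranucleotide ACAT came next with 27 windows. Its 14.5% of the simple repeats compared with 5.61% at BATF/Input/PU.1 sites, 3.96% at BATF-only sites, 5.02% at BATF/PU.1 sites and 7.54% at Input-only summits. The interval of the difference lay above 0 against each of these, from 8.91 points (4 to 14.9) for BATF/Input/PU.1 sites to 10.6 points (5.91 to 16.5) for BATF-only sites and 6.97 points (2.41 to 12.9) for Input-only summits.

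Units of A and G only, which place all purines on one strand, made up 35 of the 186 (18.8%). They were AG in 11 windows, AAAG in 9 and AAG in 9, with rarer units in the remaining windows. The share was 26.4% at BATF/Input/PU.1 sites, 28.8% at BATF-only sites, 21.5% at BATF/PU.1 sites and 18.4% at Input-only summits. AGAT, the leading unit of Input-only simple repeats with 682 of 1591, was found in 6 windows. AACCCT, the repeat of telomeres, was found in 1 BATF/Input window and in 58 of 535 simple repeats at BATF/Input/PU.1 sites, a difference of −10.3 points (−13.3 to −6.91).

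Many windows resembled one another. With blastn matches of at least 100 bp at 80% identity, 273 sites (73.98%, 69.2 to 78.4%) joined 12 families of 3 to 85 sites. Of the windows that were masked and not simple, 148 of 161 were in a family, as were 125 of the 186 simple repeats, and none of the 13 GC-rich and 9 other windows. Family 1 held 85 simple repeats, led by AC, and families 5, 6 and 9 held 17, 13 and 10 simple repeats led by AG, AAG and AAAG. The other 5 families of at least 10 sites, families 2, 3, 4, 7 and 8 with 58, 31, 27, 11 and 10 sites, held only masked windows that were not simple repeats. These 137 sites were 37.1% of all BATF/Input sites.

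The central windows of these 5 families were pieces of one long repeated element. Each was searched in chromosomes 1 to 19 and X, at the same limits. The central window of family 2 had 66608 copies, that of family 8 had 41143, of family 7 33867, of family 3 26930 and of family 4 24729. Copies and distances of a family below are those of its central window. Sites that aligned to it were 27 of 58 in family 2, 19 of 31 in family 3 and 10 of 27 in family 4. They were 7 of 11 in family 7 and 6 of 10 in family 8, and the remaining sites were not placed on the element. Between 85.3% and 89.1% of the alignments of the other 4 families had a family 2 copy within 8000 bp. Of these, 75.7% to 83.8% lay on one side and in one orientation, at a nearly fixed distance. Family 8 was 1085 bp away (median, quartiles 1082 and 1086), family 7 was 1929 bp away (1924 and 1931), family 4 was 3863 bp away (3850 and 3865) and family 3 was 4582 bp away (4563 and 4584). Along the strand of family 2 the commonest arrangement placed all 4 after it, so that families 2, 8, 7, 4 and 3 followed each other in this order. The element was not named, since no repeat annotation was used here.

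Summits were unevenly spread along this element. A summit of Input fell in 8.26% of the copies of family 3 (7.94 to 8.60%), 4.93% of family 4, 2.29% of family 2, 1.39% of family 7 and 0.537% of family 8. A BATF summit of any class fell in 0.192% of the copies of family 2 (0.160 to 0.228%), 0.130% of family 3 (0.0905 to 0.181%), 0.109% of family 4 (0.0720 to 0.159%), 0.0384% of family 7 and 0.0389% of family 8. Input summits were most frequent at the family 3 end. The BATF value of family 3 did not exceed that of family 2, where 1 in 520.4 copies held a BATF summit. The families were drawn from the BATF/Input sites, so copies with a BATF or Input summit can include sites that defined them. The BATF values partly restate the sizes of the families and, like their contrast with Input, are a description. Within a family the summits did not share one position. In family 2, 27 sites aligned to the central window, and their summits lay from 97 bp before to 87 bp after its own.

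**Figure D2:**
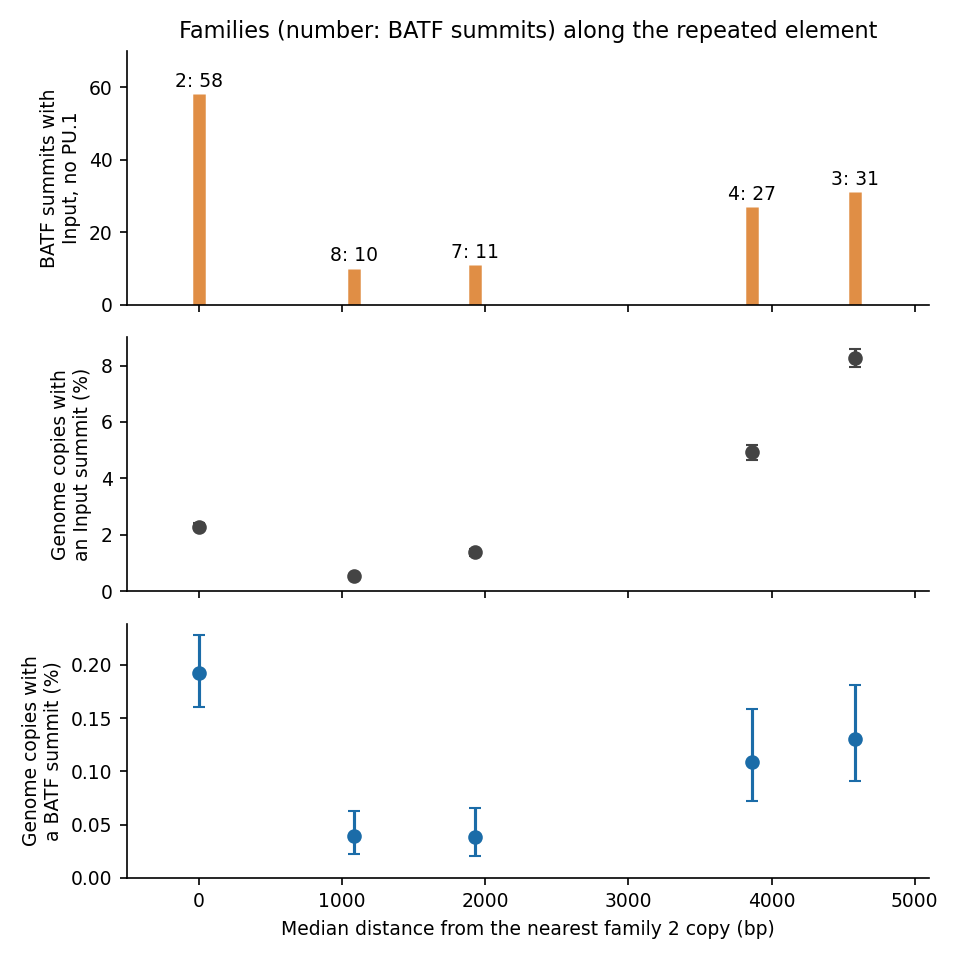
Families 2, 8, 7, 4 and 3 placed at their median distance (bp) from the nearest family 2 copy, with the number of BATF/Input sites (bars, top) and the share of genome copies (%) that hold an Input (middle) or BATF summit (bottom), with exact 95% intervals. Copies and distances are those of each family's central window, and the bars count all sites of the family, aligned to it or not. Input peaks at family 3 with 8.26% and BATF has its highest value at family 2 with 0.192%. The families were drawn from BATF/Input sites, so these values are a description.

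Windows like those of the families were also found elsewhere. A match to a BATF/Input window was present at 80.3% of Input-only summits, 70.2% of BATF/Input/PU.1 sites, 46.9% of BATF-only sites and 31.5% of BATF/PU.1 sites. As the families were drawn from the BATF/Input sites, these shares are a description. By family, family 3 matched 25.1% of Input-only summits and 1.65% of BATF-only sites, whereas family 1 matched 1.38% and 16.6%. At the BATF/Input sites themselves the shares of these families were 8.40% and 23.0%.

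Family 12 held 3 sites, and these had 3 of the 4 highest scores of all BATF/Input sites. They were chr14:19418912 with a BATF score of 58.5 and an Input score of 50.9, chr11:3102836 with 48.0 and 41.8, and chr9:3002207 with 13.4 and 18.7. All 3 had a goat Ig and a rabbit Ig summit within 500 bp, and they were the only BATF/Input sites with goat Ig. The sites on chromosomes 11 and 9 lay 2835 and 2206 bp after the first sequenced base of their chromosome. In the 2000 bp around the site on chromosome 9 the bases matched best at an offset of 234 bp (72.4% equal), the unit length of the mouse major satellite, the tandem repeat beside the centromeres. Around the other sites the best offsets were 58 bp on chromosome 14 and 59 bp on chromosome 11 (54.8% and 53.7% equal). Nearest PU.1 summits were 1148 to 1669 bp away, so these loci stayed outside the 500 bp limit while PU.1 summits were in the same neighbourhood.

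Whether a stretch of 75 bp, the read length in the study's methods, was unique in the genome differed between the kinds of repeat. The labels name another sequencer than the methods, so this length may not hold for these libraries. A length of 50 gave 48.0% in place of the first share below. The methods describe paired reads, and whether a mate could place a read was not examined. In 143 windows (38.8%, 33.8 to 43.9%) at most 50% of the 75-mers occurred once in the genome. The share was 34.8% at Input-only summits, 26.0% at BATF/Input/PU.1 sites, 14.3% at BATF-only sites and 7.98% at BATF/PU.1 sites. The difference was 12.8 points from BATF/Input/PU.1 sites (7.07 to 18.6) and 24.5 points from BATF-only sites (19.3 to 29.8), and its interval included 0 against Input-only summits (3.99 points, −0.878 to 9.10). Simple repeats were mostly unique at this length. No 75-mer was repeated in 142 of the 186, and 11.3% of them had at most 50% unique 75-mers. Among the 161 other masked windows this share was 73.9% (66.4 to 80.5%), and 13 had no repeated 75-mer. The commonest 75-mer of such a window occurred 3036 times in the genome (median over windows). For masked windows that were not simple, the share at Input-only summits was 37.9%, at BATF-only sites 46.9%, at BATF/Input/PU.1 sites 58.2% and at BATF/PU.1 sites 67.7% (54.95 to 78.8%).

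**Figure D3:**
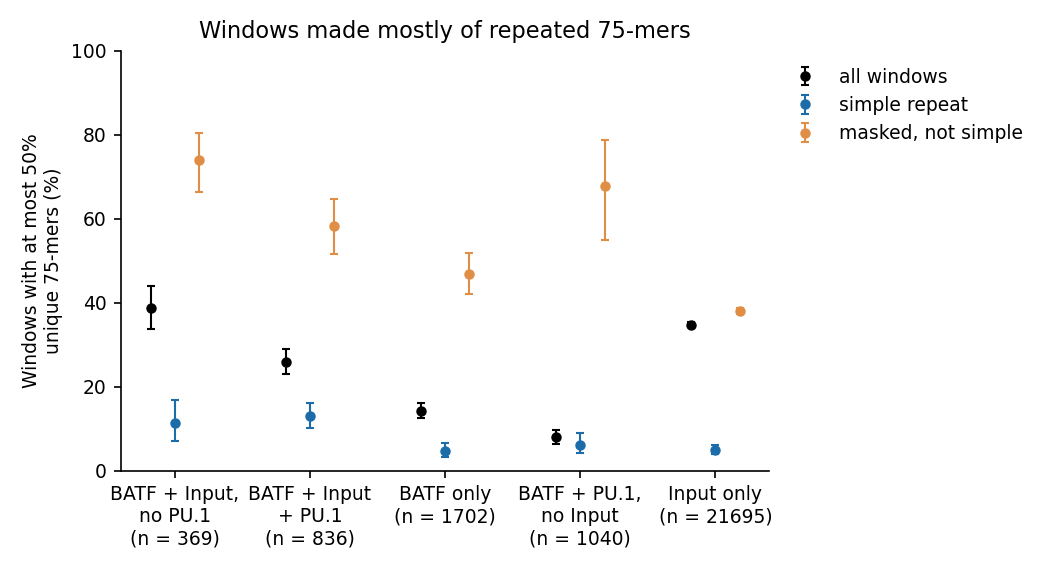
Share of windows (%) in which at most 50% of the 75-mers occur once in the genome, with exact 95% intervals, for all windows (black), simple repeats (blue) and other masked windows (orange) of each class. At BATF/Input sites 73.9% of the other masked windows and 11.3% of the simple repeats are of this kind.

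The deposited scores of the sites were low with few exceptions. The score is the value the peak caller gave each summit, and the sources do not say how it is scaled, so it is used here to order summits within a list. The lowest score was 1.32, the median 4.05 (interval of the median 3.93 to 4.37) and the highest 58.5, and 260 of the 369 scores were under 5. BATF-only sites had the same median of 4.05, beside 5.17 for BATF/PU.1 sites and 5.59 for BATF/Input/PU.1 sites. Of the 100 highest BATF scores, 2 belonged to BATF/Input sites and 93 to BATF/Input/PU.1 sites. Of the 1000 highest, 49 and 362 did. Only 6 BATF/Input sites had scores above 10, namely the 3 of family 12, Ttc28 with 15.2, Rhcg with 11.6 and an intergenic simple repeat with 10.1.

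The other sites of the highest 12 scores were 1 each in or near 6 genes. A masked window lay 38938 bp from a start of Zwint, which encodes a kinetochore protein (9.62). Simple repeats lay 457393 bp from Arid1b, a subunit of a chromatin remodelling complex, and 27599 bp from Tcp11 (9.45 each), and in introns of the nucleoside transporter gene Slc29a3 (9.21) and the phosphatase gene Ppm1h (8.71). The best site of family 2 lay 164593 bp from Tfap2b, which encodes a developmental transcription factor (8.81). By sequence, 6 of the 12 were simple repeats, 5 were other masked windows and 1, at Ttc28, was GC-rich.

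The rule used the distance to Input, so the following values are a description. The Input summit lay within 50 bp of 158 sites, within 100 bp of 250 and within 200 bp of 328, at a median of 61 bp. It was at a lower coordinate for 175 sites, at a higher one for 193 and on the same base for 1. The median was 46 bp in masked windows that were not simple repeats and 77.5 bp in simple repeats. The 369 sites had 368 different nearest Input summits. The Input score at the sites had a median of 5.56, against 4.07 for the whole Input list. Scores of the BATF and Input lists were not compared with each other, since their scale is not given. By sequence class its median was 7.29 in other masked windows, 4.84 in simple repeats and 3.37 in GC-rich windows. Within the BATF list the medians of these classes were 4.05, 3.997 and 5.59.

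**Figure D4:**
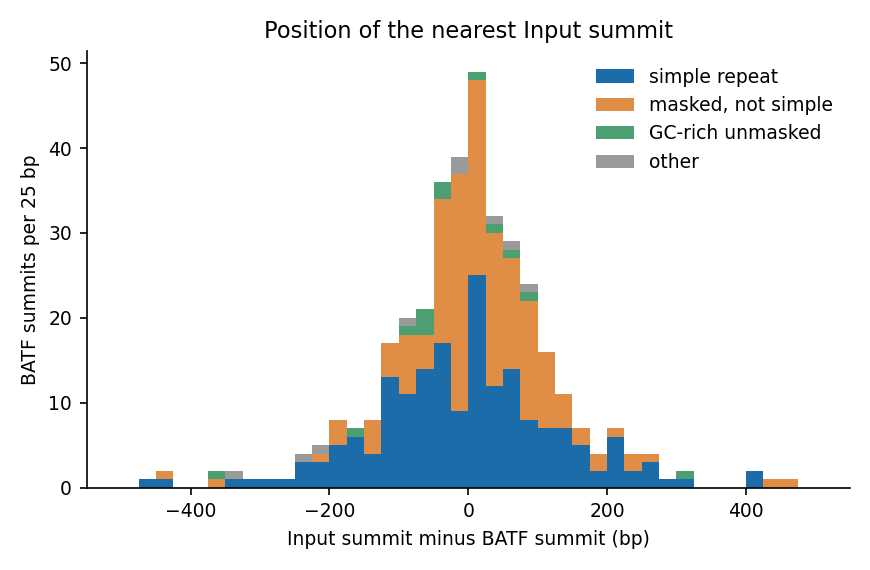
Position of the nearest Input summit relative to the BATF summit (bp), as the number of BATF/Input sites per 25 bp, stacked by sequence class. The offsets centre on 0, with 250 of 369 within 100 bp.

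**Figure D5:**
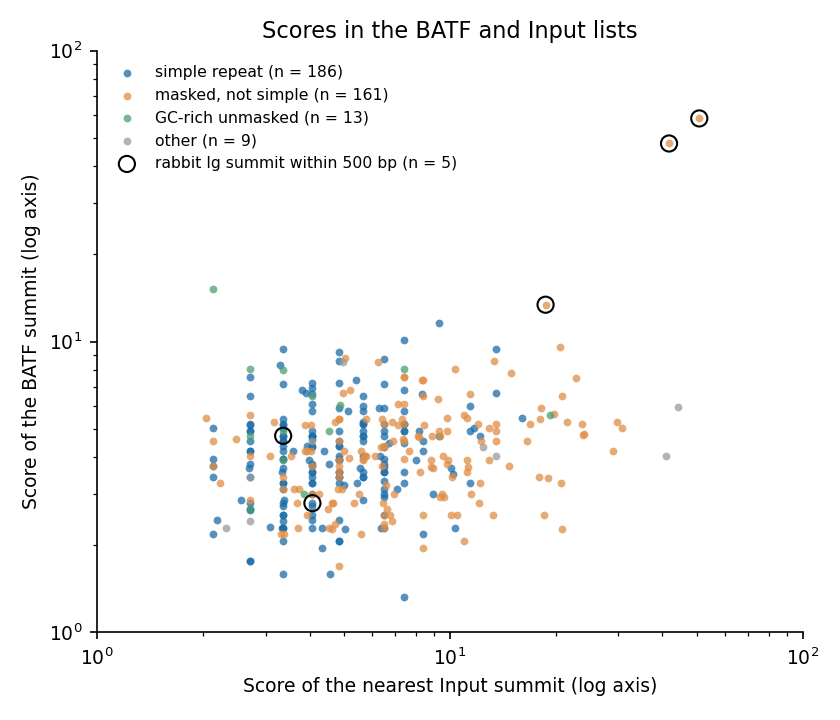
BATF score against the score of the nearest Input summit for the 369 sites (log axes), coloured by sequence class, with circles around the 5 sites near rabbit Ig. The scales of both axes are not given, and 2 of the 3 points of family 12 stand at the upper right with BATF scores of 58.5 and 48.0.

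The summits just inside and just outside the 500 bp limits were of the same sequence classes. The sites farthest from Input were chr8:107569343 at 461 bp (score 2.29) and chr14:42725904 at 455 bp (4.74). The nearest summits left out for Input were chr4:118548522 at 539 bp, with a score of 73.1, and chr7:20268546 at 588 bp (3.12). The sites nearest to PU.1 were chr2:31034982 at 504 bp (3.67) and chr2:173513304 at 520 bp (3.44), and those left out were chr3:60045723 at 480 bp (28.95) and chrX:42924641 at 472 bp (3.56). All 8 windows were simple repeats or other masked sequence. Over all sites the nearest PU.1 summit was a median of 82541 bp away, with 22 sites within 5000 bp.

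The control Ig lists touched few sites. A rabbit Ig summit was within 500 bp of 5 sites (1.36%, 0.441 to 3.13%), against 12.2% of BATF/Input/PU.1 sites (difference −10.9 points, −13.4 to −8.14), 0.294% of BATF-only sites and 0.0461% of Input-only summits. The 5 were the 3 sites of family 12 and 2 AC repeats in introns on chromosomes 16 and 18, with BATF scores of 2.78 and 4.74. Since the rabbit Ig list is short and its depth unknown, a missing rabbit Ig summit does not show that no rabbit Ig reads were there.

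More sites lay outside genes than in them, as do the sequenced bases. Of the 369, 213 were intergenic (57.7%, 52.5 to 62.8%), 137 intronic (37.1%, 32.2 to 42.3%), 9 in exons (2.44%) and 10 within 1000 bp upstream of a transcription start (2.71%, 1.31 to 4.93%). These parts take 51.4%, 40.8%, 4.44% and 3.35% of the sequenced bases. The intergenic share was 54.1% at BATF/Input/PU.1 sites, with an interval of the difference that included 0 (3.66 points, −2.44 to 9.64). It was 65.85% at Input-only summits and 35.6% at BATF-only sites. The promoter share was 17.2 points below that of BATF-only sites (19.9%, difference −17.2, interval −19.5 to −14.3), and 1.24 points below that of BATF/Input/PU.1 sites with an interval that included 0 (−3.21 to 1.24). The median distance to a protein-coding start was 56136 bp, against 13986 bp at BATF-only sites. It was 89 bp for the 13 GC-rich sites, 44401.5 bp for simple repeats and 119798 bp for other masked windows.

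Of the 10 promoter sites, 8 were upstream of protein-coding genes and 7 were GC-rich. Ttc28 had the highest score, 19 bp from its start. Fcgr3, which encodes a low-affinity Fc receptor for IgG, had a score of 6.04 at 985 bp, in a window in which 42.1% of the 75-mers were unique. Rif1, a regulator of replication timing and DNA repair, had 4.94 at 81 bp, and Phospho1, a phosphatase of bone mineralisation, 4.94 at 89 bp. The divergent pair Zcrb1, a splicing factor, and Pphln1, a silencing factor, had 3.92 at 2 bp from the nearer start. St8sia1, a sialyltransferase, had 3.26 at 645 bp and was a simple repeat. Pim1, a serine/threonine kinase induced by cytokines, had 2.99 at 25 bp, and Wdr1, a cofactor of actin disassembly, 2.67 at 55 bp. The other promoter sites, a simple repeat in Galnt17 and a masked window in Yes1, preceded transcription starts of genes that are not protein-coding. GC-rich sites in exons or introns near starts were found at Lrig1 and Zc3h18 (8.04 each), Tfap2e (7.96), Mical3 (6.48) and Trim8 (4.75).

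The genes searched by name held none of the sites. Among 64 genes of T helper biology in 3 lists (15 cytokines such as Il9 and Il21, 16 receptors and T cell receptor signalling genes, and 33 transcription factors including Batf, Irf4, Irf8 and Spi1, the gene of PU.1), 0 had a site in the body or within 10000 bp. The background was 0.85% of 21755 protein-coding genes, or 185 genes, so a count of 0 among 64 is near what this share gives. The nearest was Il6, which encodes an inflammatory cytokine, with a site 25997 bp outside the gene on chromosome 5, an AAAG repeat with a score of 3.26. The 128 protein-coding genes with a site in the body were long, with a median of 122374.5 bp against 17414 bp for all protein-coding genes. A long gene offers more bases for a site to fall in, and no comparison matched for length was made. In 5 of the 128 genes, Gm20388, Maml3, Peak1, Sh3gl3 and Zc3h12b, there were 2 sites.

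The sites were scattered over all chromosomes, from 5 on chromosome 19 to 32 on chromosome 5. Per sequenced Mb this was 0.0831 on chromosome 3 to 0.216 on chromosome 5, with 0.144 overall. As a share of each chromosome's BATF summits it was 4.95% on chromosome 19 to 15.6% on chromosome X. Only 6 sites had another within 10000 bp, and 4 lay within 100000 bp of the first sequenced base of a chromosome.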

How the data were processed

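For each of the 5 libraries the authors deposited a list of summits, each a position of 1 bp with a name in the style of MACS2 and a score. Bowtie2 and mm10 are named in the submitters' processing notes, whereas the study's methods describe paired reads of 75 bp, Bowtie, MACS and peak calling with FindPeaks. The labels name the MiSeq sequencer and the methods the NextSeq, so the read length may differ. The meaning of the score, the options, the control used and the read totals are not given in the sources used here. The choice of control, and how reads with several matches were placed, could change which repeat summits were listed.

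Positions lay within the lengths of GRCm38.p6, from which sequence and masked bases were read, and genes came from GENCODE M21. Windows of 200 bp were centred on summits. 75-mers were matched exactly on both strands. Sequence families used blastn (BLAST 2.17.0) with single linkage. Intervals were computed with scipy 1.17.1 in Python 3.11.15. The window measures were tested on simulated sequences. The sites named were the 12 highest scores, promoter sites, sites near listed genes, the best of each sequence class and family, and those at the limits. The rule, the lists and the members were chosen with earlier results of these data known. The sequence of 1 site is not reported here.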

Additional observations from a re-analysis of the deposited data

How the results depend on the processing

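Of 133 values recomputed under other settings, 105 stayed within the interval of the main value (for counts, within 1.5 times). Most settings kept most of the same sites, so closeness to the main value was partly built in. None of the shares of TGAGTCA or TGACTCA left it. As the main share was 0, settings that only removed sites or shortened the windows could give only 0. Among the wider settings, the share was 0.261% with Input within 1000 bp and 0.542% in windows of 400 bp. It was 0 with PU.1 allowed beyond 200 bp.

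The number of sites was 129 with BATF scores above their list's median and 245 with Input scores above theirs. With BATF scores above the median, the median BATF score became 5.62, the median distance to Input 43 bp, the masked share 89.9%, the GC-rich share 7.75%, the share made mostly of repeated 75-mers 45.0% and the share of sites near another site 0%. With Input scores above the median, the distance was 52 bp, the simple-repeat share 41.6%, the GC-rich share 1.63% and the repeated 75-mer share 49.0%. With Input within 100 bp, the median score was 4.42, the distance 37.5 bp, the simple-repeat share 44.0% and the share near another site 0%; with Input within 200 bp the distance was 52 bp. Allowing PU.1 beyond 200 bp raised the simple-repeat share to 56.9%.

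Other limits moved the value that they define. Simple repeats fell to 17.3% when over 70% of the bases had to repeat, masked windows to 90.2% when over 75% had to be masked, and family members to 41.7% at 90% identity. With 50-mers, 48.0% of windows were mostly repeated. Promoters of 2000 bp held 5.96% of sites. Another site lay within 1000 bp of 0.542% and within 100000 bp of 5.96%. With 1 site per 10000 bp this share was 0%, and without sites near control Ig the rabbit Ig share was 0%, both by construction. Within 50000 bp, 1 of the 64 genes of the lists (1.56%) had a site, beside 443 of 21755 protein-coding genes (2.04%), so this count is near the background.

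No paired analysis was possible because each antibody had 1 library. Depth is unknown for every list, the score is on an unstated scale, and the summit lists give no peak widths. How multiply matching reads were placed was not tested.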

Other observations

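The 9 sites in none of the 3 named sequence classes were spread over 9 loci, 5 of them intergenic and 4 in introns. Their BATF scores were 2.29 to 8.49. Their Input scores were 2.33 to 44.3, and the highest belonged to a site 262983 bp from a start of Stmn2, at which the BATF score was 5.94 and PU.1 lay 590 bp away. A second, 53144 bp from Frmd4a, had an Input score of 40.8 and a BATF score of 4.05. These sites were picked out after their values were seen.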
